A study of Rattus norvegicus with 6 samples.

Results

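The genes described here encode CD163, the scavenger receptor for hemoglobin bound to haptoglobin, and the proteins that handle the heme and iron released from it. They were chosen by symbol as a list of 10 genes, *Cd163*, *Slc48a1*, *Hmox1*, *Blvra*, *Blvrb*, *Slc40a1*, *Tfrc*, *Fth1*, *Ftl1* and *Slc11a1*. Of these, 7 had at least 1 probe set that names a single gene, and all 7 were among the 9928 genes tested, of 14217 measured in the series. The 7 genes were read by 10 probe sets, and each gene was summarised by its probe set of highest mean over the 6 arrays. The probe sets of the ferritin chains name several genes, 2 for *Fth1* and 5 for *Ftl1*, so neither chain is reported. *Slc11a1* was not analysed here.

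The RNA came from cells positive for CD11b and CD163 that were isolated by fluorescence-activated sorting from the right hemisphere of adult male Sprague-Dawley rats. The labels call them perivascular and meningeal macrophages. The 3 controls (rats 63, 68 and 69) had no ischemia. The 3 ischemic rats (64, 65 and 66) had the right middle cerebral artery occluded by the intraluminal method for 1 h, followed by 16 h of reperfusion. The RNA of each rat was read on its own Affymetrix array. The values are log2 units after RMA (robust multi-array average), so a difference of 1 is a doubling of the signal. Because CD163 protein was part of the sorting gate in both groups, *Cd163* mRNA was read in pools selected for cells that carried the receptor at their surface. The study checked the purity of the sort by flow cytometry in separate experiments, so the makeup of these 6 sorts was read only through cell type markers. That check found a small share of granulocytes among the CD163+ cells sorted from ischemic brain.

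Macrophages take up hemoglobin through CD163 and digest it in the lysosome, from which heme is moved to the cytosol. Heme oxygenase opens the heme ring and frees iron and biliverdin, and biliverdin reductases turn biliverdin into bilirubin. The iron is stored in ferritin or leaves the cell through ferroportin, the only known iron exporter of mammalian cells, while the transferrin receptor brings iron in. Border-associated macrophages of the brain, which include perivascular and meningeal macrophages, are known for high CD163, as are the macrophages that recycle red cells in spleen and liver.

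In CD163+ macrophages, 2 of the 7 genes fell after ischemia and none rose. *Slc40a1*, which encodes ferroportin, was 5.13-fold lower, and *Blvrb*, which encodes biliverdin reductase B, was 2.59-fold lower. *Cd163*, *Hmox1*, *Blvra*, *Tfrc* and *Slc48a1* did not pass the test. Here "rose" and "fell" mark genes whose adjusted p from limma was under 0.01, with Benjamini-Hochberg adjustment over all 9928 genes. Over all genes tested, 22.8% passed in either direction, 16.8% rose and 5.99% fell, so falls were the rarer direction in these arrays. The median log2 fold change of the 7 genes was -0.01, beside 0.10 over all genes tested. In 3 of the 7 genes the 3 ischemic rats lay outside the range of the controls, where 55.6% of all genes tested did so in either direction. *Slc40a1* and *Blvrb* lay below every control, as did 19.9% of all genes, and *Slc48a1* lay above, as did 35.7%.

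**Figure D1:**
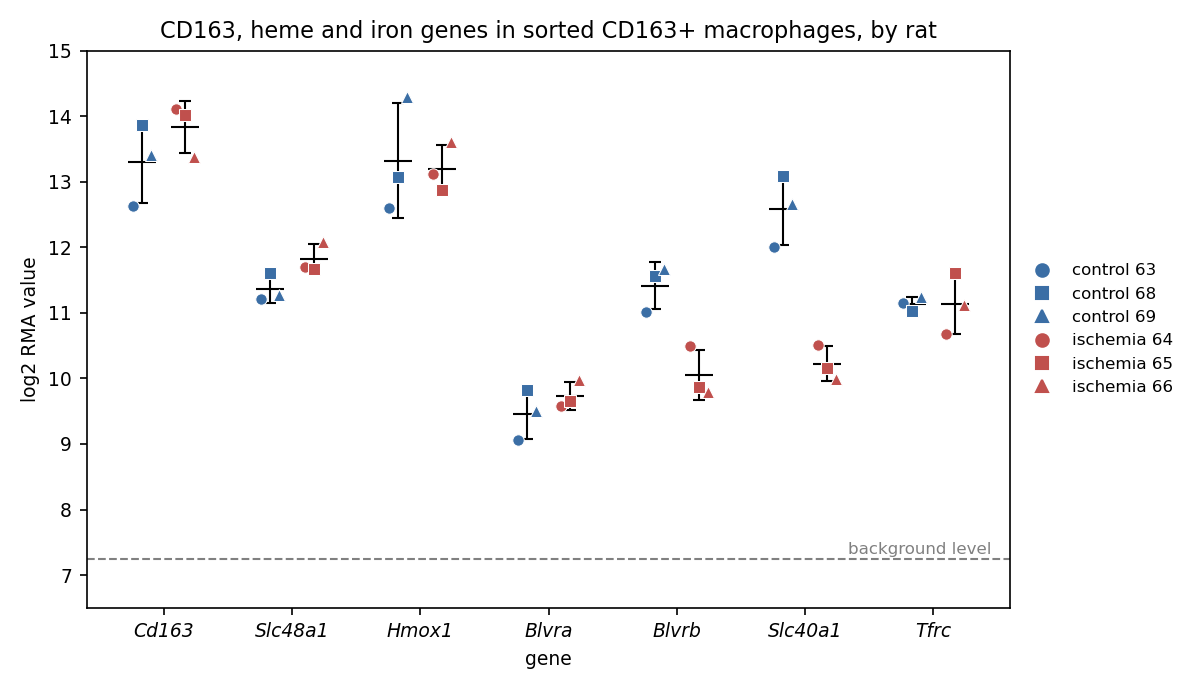
The log2 RMA value of the 7 genes (y axis) in each rat, with controls in blue and ischemic rats in red; horizontal bars are group means, error bars are 1 SD (n = 3), and a dashed line marks the background level, 7.25, set from genes of other tissues. *Blvrb* and *Slc40a1* lay lower in all 3 ischemic rats than in all 3 controls, *Slc48a1* lay higher without passing the test, and the groups overlapped for the other genes.

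*Slc40a1* had the largest change of the 7 genes. It was at 12.01, 13.09 and 12.66 log2 units in controls 63, 68 and 69, and at 10.52, 10.17 and 9.999 in ischemic rats 64, 65 and 66. Every ischemic rat lay more than 1 log2 unit below the lowest control. The mean fell from 12.59 ± 0.55 to 10.23 ± 0.26 (SD, n = 3), and the log2 fold change was -2.36 (SE 0.27, adjusted p = 0.000739, limma, 95% confidence interval -2.98 to -1.74). This places *Slc40a1* among the 58 genes, 0.584% of those tested, that were lower at an adjusted p under 0.01 and by more than 2 log2 units. In these pools of sorted cells, fewer cells that express a gene and less RNA per cell cannot be told apart.

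Ferroportin was read by 3 probe sets, and all 3 gave the same direction. The second brightest was at 11.99, 12.91 and 12.72 in controls and at 10.12, 9.43 and 9.52 after ischemia. Its log2 fold change was -2.85 (SE 0.27), the largest of the 3 falls. The third was at 11.23, 12.27 and 11.93 in controls and at 9.64, 9.68 and 9.46 after ischemia, a difference of -2.21 (SE 0.25). With every single-gene probe set fitted together, the adjusted p was 0.000728, 0.000439 and 0.000673 from the brightest to the dimmest of the 3 (limma). In all 3 probe sets the ischemic rats stayed above the background level of 7.25, the 90th percentile of 28 genes specific to other tissues, so the transcript was still detected after ischemia.

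**Figure D2:**
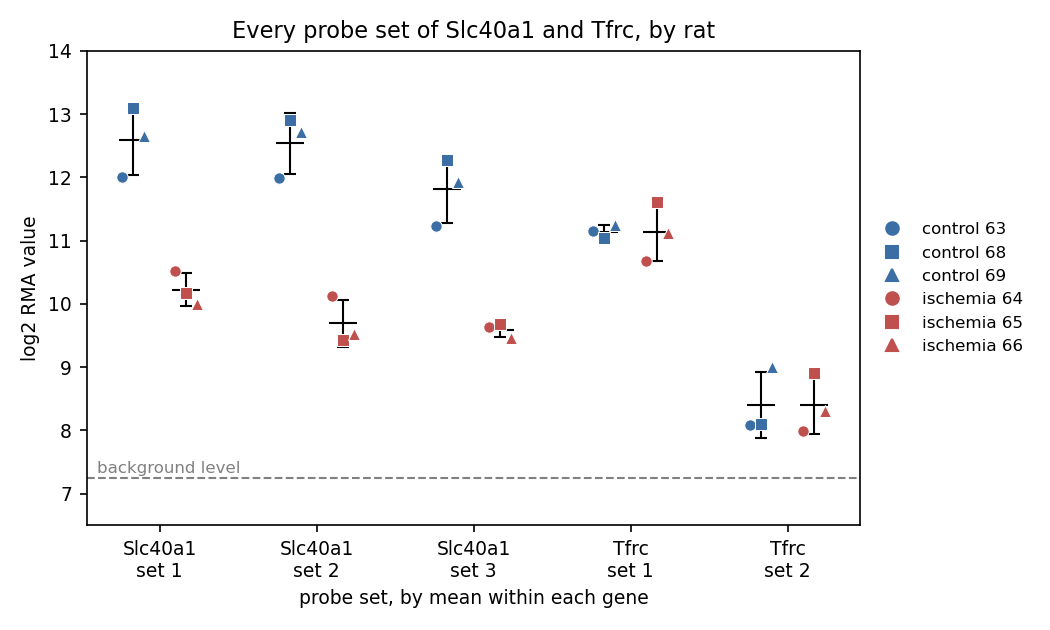
The log2 RMA value (y axis) of each of the 3 probe sets of *Slc40a1* and the 2 of *Tfrc* in each rat, numbered by mean within each gene; horizontal bars are group means, error bars are 1 SD (n = 3), and a dashed line marks the background level, 7.25. All 3 probe sets of *Slc40a1* were lower in every ischemic rat than in every control, whereas both probe sets of *Tfrc* overlapped between groups.

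*Blvrb*, which reduces biliverdin and is also a flavin reductase, was at 11.01, 11.57 and 11.68 in controls and at 10.49, 9.86 and 9.79 after ischemia. The groups did not overlap, although control 63 and ischemic rat 64 were close to each other. The mean fell from 11.42 ± 0.36 to 10.05 ± 0.38 (SD, n = 3), and the log2 fold change was -1.37 (SE 0.24, adjusted p = 0.00356, limma, 95% confidence interval -1.93 to -0.82). The call was lost when control 68, control 69, ischemic rat 65 or ischemic rat 66 was left out, with log2 fold changes of -1.24 to -1.30 and adjusted p-values of 0.0135 to 0.0168 (limma). *Blvra*, the other biliverdin reductase, was at 9.06, 9.82 and 9.51 in controls and at 9.57, 9.65 and 9.97 after ischemia. The groups overlapped, and the log2 fold change of 0.27 (SE 0.21, adjusted p = 0.330, limma) had a 95% confidence interval of -0.21 to 0.75. Its direction turned to -0.16 when the arrays were centred on ribosomal protein genes.

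The promoters of both genes that fell are shown as the 250 bases before a listed start of each gene. Both are given 5′ to 3′ on the gene's own strand, ending at the base before a start that RefSeq lists on the GRCr8 assembly. They are reference sequence, not sequence read from these rats. *Blvrb* is at chr1:91866008-91866257 on the plus strand and *Slc40a1* at chr9:55543461-55543710 on the minus strand. Capitals mark hypoxia response element cores, searched as ACGTG and GCGTG on both strands, and antioxidant response element cores, searched as TGACNNNGC on both strands.
Blvrb: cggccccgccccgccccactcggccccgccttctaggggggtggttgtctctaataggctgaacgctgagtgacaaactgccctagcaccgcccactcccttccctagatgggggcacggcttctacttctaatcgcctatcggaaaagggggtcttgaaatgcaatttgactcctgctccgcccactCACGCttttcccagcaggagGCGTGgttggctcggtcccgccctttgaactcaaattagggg
Slc40a1: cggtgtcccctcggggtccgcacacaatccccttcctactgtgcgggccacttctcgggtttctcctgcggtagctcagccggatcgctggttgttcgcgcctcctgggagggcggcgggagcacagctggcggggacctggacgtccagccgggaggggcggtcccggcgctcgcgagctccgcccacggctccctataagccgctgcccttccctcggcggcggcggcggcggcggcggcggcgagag
The *Blvrb* window holds GCGTG on each strand, and its G and C content is 60.4%. The *Slc40a1* window holds none of the 3 motifs and has a G and C content of 74.0%. Among 33469 rat promoters of the same length, 25.9% hold GCGTG, 16.6% hold ACGTG and 10.1% hold TGACNNNGC. Of the genes that did not pass, *Tfrc* has ACGTG and GCGTG in its window, *Blvra* has TGACNNNGC, and *Cd163* has none of the motifs. These matches describe letters only. The gene start in RefSeq lies at -90003 bases from the start used for *Slc40a1* and at -9513 for *Blvra*, where minus means upstream. Which start the transcripts of these cells use was not tested.

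CD163 itself did not pass the test. *Cd163* was at 12.63, 13.86 and 13.41 in controls and at 14.11, 14.02 and 13.38 after ischemia. Control 63 was the lowest of the 6 arrays, and ischemic rat 66 lay within the range of the controls. The means were 13.30 ± 0.62 and 13.84 ± 0.40 (SD, n = 3), and the log2 fold change was 0.54 (SE 0.32, adjusted p = 0.211, limma) with a 95% confidence interval of -0.20 to 1.28. The log2 fold change was 0.20 without control 63, 0.82 without control 68 and 0.11 with ribosomal centring, and passed in none of them. *Slc48a1* encodes HRG1, which carries heme out of the lysosome, and was at 11.20, 11.60 and 11.27 in controls. It was at 11.71, 11.67 and 12.08 after ischemia, above every control. The log2 fold change of 0.46 (SE 0.17, adjusted p = 0.0602, limma, 95% confidence interval 0.070 to 0.85) was not past the test, and it was 0.03 when the arrays were centred on ribosomal protein genes.

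*Hmox1*, the inducible heme oxygenase, varied more among the controls than between the groups. It was at 12.60, 13.07 and 14.30 in controls 63, 68 and 69 and at 13.11, 12.88 and 13.60 after ischemia. The highest and the lowest of the 6 values were both controls. The means were 13.32 ± 0.88 and 13.20 ± 0.37 (SD, n = 3), and the log2 fold change was -0.12 (SE 0.40, adjusted p = 0.826, limma). Its 95% confidence interval of -1.05 to 0.80 includes a 2-fold fall. Without control 69 the difference turned to 0.36, and it was -0.55 with ribosomal centring and -0.64 with array weights, passing in none of them.

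*Tfrc*, the transferrin receptor that takes up transferrin-bound iron, had a difference that took either sign with the scaling and did not pass. Its brighter probe set was at 11.15, 11.04 and 11.24 in controls and at 10.68, 11.61 and 11.12 after ischemia. The ischemic rats lay on both sides of the controls and were more widely spread, with an SD of 0.47 against 0.10. The log2 fold change was -0.01 (SE 0.22, adjusted p = 0.984, limma, 95% confidence interval -0.52 to 0.51), against -0.43 with ribosomal centring and 0.29 with array weights. The dimmer probe set was at 8.08, 8.11 and 9.01 in controls and at 7.99, 8.91 and 8.31 after ischemia, with means of 8.40 in both groups. Of the 10 probe sets of the 7 genes, 4 passed the test, 3 of *Slc40a1* and the 1 of *Blvrb*.

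Other genes of the pathway were read from 6 lists that hold 82 genes, of which 69 were tested. Of these, 18 rose (26.1%) and 5 fell (7.25%), beside 16.8% and 5.99% of all genes tested. Their median log2 fold change was 0.30. Among the rises, *Slc39a14*, *Lcn2* and *Steap3* entered the test only through the ischemic rats. Direction in these counts depended on the scaling, although with median centring 18 pathway genes rose and 4 fell. With the arrays centred on ribosomal protein genes the median of all genes moved from 0.10 to -0.32, the calls over all genes went from 1664 rises and 595 falls to 397 and 1360, and 7 pathway genes rose and 11 fell. With quantile normalization repeated there were 1391 rises and 929 falls over all genes. *Slc40a1* and *Blvrb* fell under both, at -2.79 and -1.80 with ribosomal centring and -2.49 and -1.50 with quantile normalization repeated.

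Of 10 genes for uptake and transport of heme, 9 were tested, 2 rose and 7 did not pass, beside 16.8% rises among all genes tested. With ribosomal centring, 1 rose and 1 fell. The 9 genes had a median log2 fold change of 1.20, or 0.58 with *Flvcr2*, whose controls were within background, at its lower bound. *Lrp1*, which encodes the receptor of heme bound to hemopexin, was at 10.91, 10.95 and 10.07 in controls and at 12.93, 12.77 and 13.18 after ischemia. Each ischemic rat was above each control, and the log2 fold change was 2.32 (SE 0.24, adjusted p = 0.000578, limma). It was 1.48 with the mean of all its probe sets and 1.89 with ribosomal centring, and passed the test in both. *Flvcr1*, which exports heme from the cell, was at 8.90, 8.79 and 8.51 in controls and at 10.03, 10.10 and 10.01 after ischemia, a rise of 1.31 (SE 0.14, adjusted p = 0.0006, limma). Its call was lost with ribosomal centring, at 0.88. The 2 brightest genes that did not pass were *Pgrmc1*, a heme-binding membrane protein, at 0.17 and *Hmox2*, the constitutive heme oxygenase, at -0.25.

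Among genes that move or store iron, calls went in both directions. Of 20 genes, 14 were tested, 3 rose, 3 fell and 8 did not pass, beside 16.8% rises and 5.99% falls among all genes tested. With the low-signal filter at the 60th percentile, 1 rose and 2 fell. The 3 that rose had all controls within background and entered the test only through the ischemic rats, so the size of their change is given as a lower bound, measured from the background level of 7.25. *Slc39a14*, which encodes the ZIP14 importer of iron not bound to transferrin, was at 6.83, 7.04 and 6.99 in controls. It was at 9.87, 10.78 and 10.84 after ischemia, at least 9.48-fold higher (adjusted p = 0.000144, limma). *Lcn2*, which encodes lipocalin-2, a binder of iron-carrying siderophores, was at 4.99, 4.90 and 5.68 in controls. After ischemia it was at 7.82, 9.37 and 8.41, at least 2.43-fold higher (adjusted p = 0.000713, limma), and it is also a granulocyte marker. *Steap3*, which reduces ferric iron in endosomes, had means of 6.31 in controls and 7.75 after ischemia, at least 1.41-fold higher (adjusted p = 0.00508, limma). Its call was lost without the low-signal filter and without control 63, control 69, ischemic rat 65 or ischemic rat 66 (highest adjusted p = 0.0192, limma), whereas *Slc39a14* and *Lcn2* passed with each rat left out.

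The genes of this list that fell act beside ferroportin, ferritin and the transferrin receptor. *Heph*, which encodes hephaestin, the oxidase that works with ferroportin, was at 11.95, 12.59 and 12.49 in controls and at 11.63, 10.97 and 10.48 after ischemia. It fell by 1.31 (SE 0.30, adjusted p = 0.00954, limma). *Ncoa4*, the cargo receptor that delivers ferritin to the lysosome, and *Hfe*, a partner of the transferrin receptor, were the remaining falls and were singled out after their values were seen. *Ncoa4* fell by 0.95 (SE 0.21) and *Hfe* by 0.92 (SE 0.14). Ceruloplasmin (*Cp*), the other oxidase that works with ferroportin, was at -0.33 (SE 0.37, adjusted p = 0.499, limma) and did not pass. *Pcbp1*, an iron chaperone, was at 0.32 (SE 0.15) and did not pass either. The calls of *Heph* and *Ncoa4* were lost without control 68, control 69, ischemic rat 65 or ischemic rat 66, that of *Heph* also without control 63, and that of *Hfe* without either ischemic rat 65 or 66 (highest adjusted p, limma, 0.0397, 0.0383 and 0.013). Both *Heph* and *Ncoa4* were also lost without the low-signal filter (adjusted p = 0.0193 and 0.0166, limma), and *Heph* with robust moderation (0.0125).

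**Figure D3:**
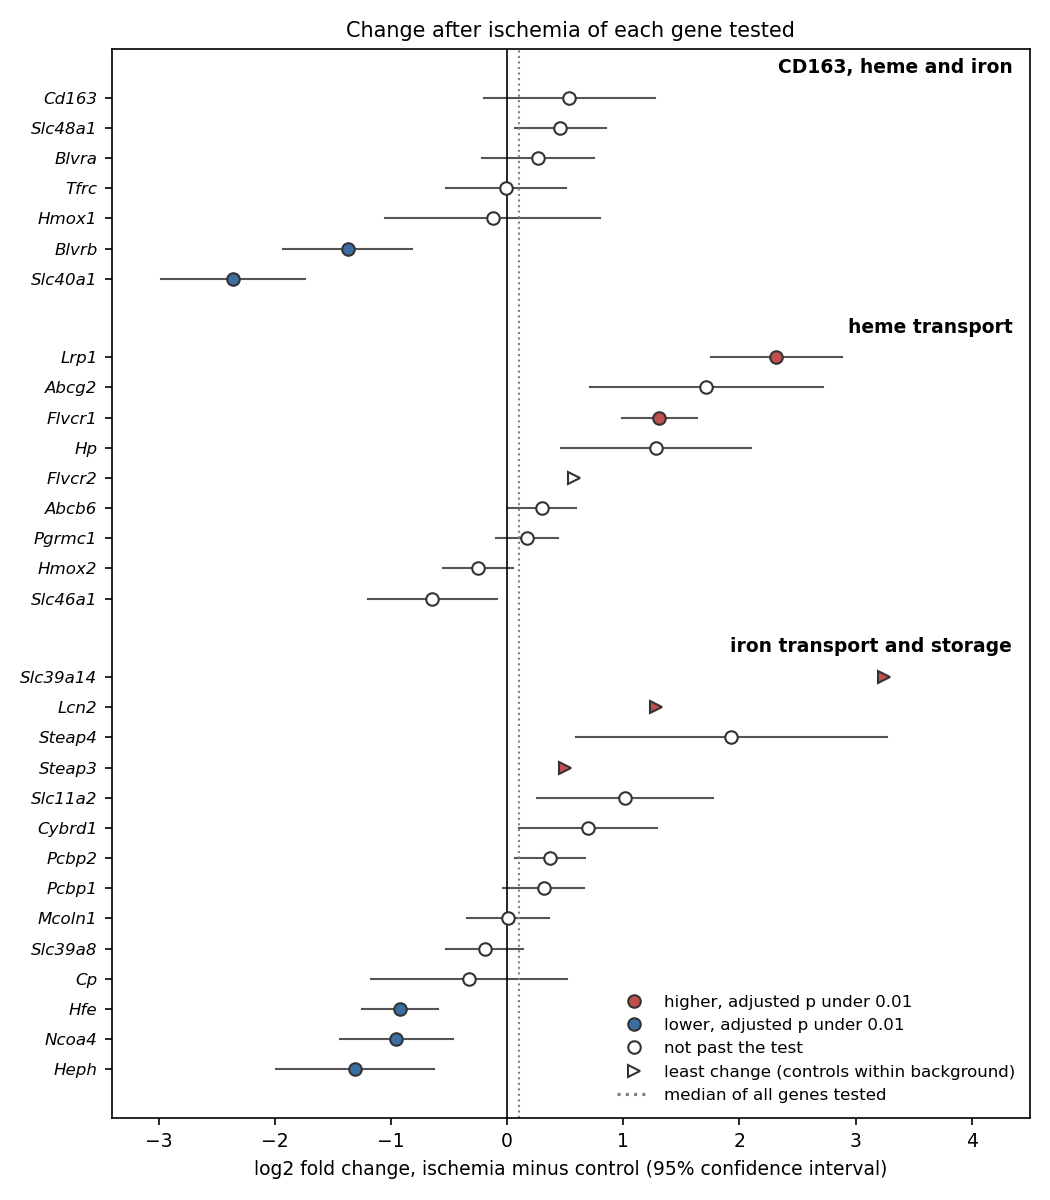
Log2 fold change, ischemia minus control (x axis), with its 95% confidence interval, for the 7 genes and for the tested genes of the lists for heme transport and for iron transport and storage; filled symbols are at an adjusted p under 0.01 and the dotted line is the median of all genes tested, 0.10. Triangles stand at the least change of genes whose controls were all within background, with no interval. *Slc40a1* and *Blvrb* lay at -2.36 and -1.37 and *Lrp1* at 2.32, directions each kept with the arrays centred on ribosomal protein genes.

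The direction of calls in heme synthesis and in iron and heme sensing changed under some scalings but not with median centring. Of 11 heme synthesis genes tested, 3 rose and none fell, beside 16.8% and 5.99% of all genes tested. There were 0 rises and 2 falls with ribosomal centring, 1 and 2 with quantile normalization repeated, and 3 and 0 with median centring. *Abcb10*, a transporter of the inner mitochondrial membrane, rose by 0.81 (SE 0.17) and *Alad*, which forms porphobilinogen, by 0.77 (SE 0.15). *Slc25a37*, which encodes the iron importer mitoferrin 1, rose by 0.75 (SE 0.16). *Alas1*, the rate-limiting enzyme, was at 0.59 (SE 0.37) and *Slc25a28*, mitoferrin 2, at -0.65 (SE 0.17), and neither passed. Of 10 genes that sense iron or heme, none fell, against 0 rises and 1 fall with ribosomal centring or with quantile normalization repeated. Median centring gave 1 rise and 0 falls. Only *Ireb2* rose, by 0.75 (SE 0.15). It encodes iron regulatory protein 2, which binds the transcripts of ferroportin, ferritin and the transferrin receptor when iron is low. *Nfe2l2*, which encodes the activator NRF2, was at -0.25 (SE 0.19) and *Fbxl5*, which marks iron regulatory proteins for degradation when iron is high, at 0.41 (SE 0.12), and neither passed. *Bach1*, the heme-sensing repressor of *Hmox1*, at 0.37 (SE 0.17), and *Spic*, a transcription factor of macrophages that recycle red cells, did not pass either and were singled out after their values were seen. *Spic* was at 9.48, 9.99 and 10.34 in controls and at 8.89, 8.997 and 8.06 after ischemia, lower in every ischemic rat, and its log2 fold change of -1.28 (SE 0.29, adjusted p = 0.0103, limma) was just short of the threshold. The rises of *Abcb10*, *Alad*, *Slc25a37* and *Ireb2* were lost with ribosomal centring, at 0.39, 0.34, 0.33 and 0.32, and without control 63, control 68, ischemic rat 65 or ischemic rat 66. Those of *Abcb10*, *Alad* and *Ireb2* were also lost without control 69, and that of *Slc25a37* without ischemic rat 64. With quantile normalization repeated *Abcb10*, *Slc25a37* and *Ireb2* did not pass (adjusted p = 0.011, 0.0117 and 0.0106, limma), without the low-signal filter *Abcb10* and *Slc25a37* did not, and with the mean of all its probe sets *Abcb10* was at 0.51 and did not.

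Of 13 genes for iron-sulfur cluster assembly, 7 rose and 6 did not pass, beside 16.8% rises among all genes tested. Their median was 0.67. The rises numbered 2 with ribosomal centring, 4 with quantile normalization repeated, 3 without the low-signal filter, and 2 without control 63, control 69, ischemic rat 65 or ischemic rat 66. *Ciapin1*, an electron carrier of the cytosolic assembly machinery, was at 9.62, 10.01 and 9.68 in controls and at 11.19, 11.63 and 11.75 after ischemia. It rose by 1.75 (SE 0.18, adjusted p = 0.000571, limma). *Bola3*, a mitochondrial assembly factor, rose by 1.34 (SE 0.16), *Ciao1* by 0.93 (SE 0.19) and *Nubp2* by 0.86 (SE 0.18), the latter both cytosolic. *Isca1* was at 0.04 and the scaffold *Iscu* at -0.22, and neither passed. The rises of *Ciao1* and *Nubp2* were lost in each of those settings, at 0.51 and 0.43 at the lowest. *Ciapin1* and *Bola3* passed in every setting tried other than the fit without moderation, which called no gene.

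Among 12 genes that control CD163 or its release, 2 rose and 2 fell, beside 16.8% and 5.99% of all genes tested. The share that rose was near that over all genes. With ribosomal centring, 1 rose and 4 fell. *Il10*, whose product interleukin-10 induces CD163, was at 10.34, 9.38 and 10.87 in controls and at 8.69, 8.89 and 8.46 after ischemia. It fell by 1.52 (SE 0.34, adjusted p = 0.00913, limma). *Nr3c1*, the glucocorticoid receptor, through which glucocorticoids induce CD163, fell by 0.87 (SE 0.14) from 11.58 to 10.71. *Rhbdf2*, which encodes iRhom2, a protein needed for maturation of the protease ADAM17, rose by 1.31 (SE 0.21). *Stat3*, which acts downstream of the interleukin-10 receptor, rose by 1.16 (SE 0.22). The call of *Il10* was lost when any rat except control 68 was left out, that of *Nr3c1* without control 68, control 69, ischemic rat 65 or ischemic rat 66, that of *Stat3* without control 63, control 68, ischemic rat 65 or ischemic rat 66, and that of *Rhbdf2* without ischemic rat 65 (highest adjusted p, limma, 0.0363, 0.0166, 0.0208 and 0.012). *Il10* was also lost with median centring, quantile normalization repeated, robust moderation or no low-signal filter (adjusted p = 0.0109 to 0.0191, limma), and *Stat3* with ribosomal centring, at 0.73. *Csf1r*, the receptor of macrophage growth factors, was at -0.56 (SE 0.21) and *Maf*, a transcription factor of macrophages, at -0.66 (SE 0.26), and neither passed. *Adam17*, the protease that sheds CD163, was named after its values were seen, did not pass, and was at 11.60, 12.04 and 12.06 in controls and at 11.69, 12.04 and 11.97 after ischemia.

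Some lists of cell type markers differed in average between the groups. The 10 markers of border-associated macrophages averaged 12.19 to 13.23 log2 units in controls and 11.42 to 12.13 after ischemia. Of these, *Igfbp4* (-2.68), *Colec12* (-1.95) and *Hpgd* fell, beside 5.99% of all genes tested. *Hpgd* reached background after ischemia, entered the test only through the controls, and was at least 2.32-fold lower. *Mrc1*, the mannose receptor, was at 14.22 and 14.04 in the group means. The 9 monocyte markers averaged 9.98 to 10.41 in controls and 12.41 to 13.07 after ischemia, and 7 rose, beside 16.8% of all genes tested. *Vcan*, within background in controls, entered the test only through the ischemic rats and was at least 76.1-fold higher. *Ccr2* was not past the test, at 0.43. The 8 granulocyte markers averaged 6.31 to 6.54 and 7.56 to 8.52, and *Camp* and *Mmp8* stayed below background in both groups. Of 6 tested, 3 rose (*S100a8*, *Lcn2* and *Mmp9*), where 16.8% of all genes tested did so. All controls of these 3 were within background, so they entered the test only through the ischemic rats. Their rises are lower bounds, at least 2.68-, 2.43- and 3.16-fold. *Cxcr2*, the brightest of the granulocyte markers, was at 9.19 in controls and 8.70 after ischemia in the group means and did not pass. *S100a9* (2.19) and *Csf3r* (0.93) lay above every control after ischemia without passing. The 8 oligodendrocyte markers averaged 9.22 to 10.53 in controls and 7.87 to 8.77 after ischemia. Of 7 tested, 3 fell, beside 5.99% of all genes tested. The part of these lists in the falls of *Slc40a1* and *Blvrb* or in the rises of *Lrp1*, *Slc39a14* and *Lcn2* was not tested.

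Erythroid markers, read because red cells carry hemoglobin, were low on average in both groups, apart from the globins. The 8 erythroid markers averaged 6.58 to 6.74 in controls and 6.38 to 6.58 after ischemia, below the background level of 7.25, and the defining markers *Alas2*, *Slc4a1* and *Rhag* were below it in both groups. *Hbb*, a globin that macrophages can also contain, was at 9.64 and 9.24 in the group means, a log2 fold change of -0.39 (adjusted p = 0.276, limma). The other globin measured, *Hba-a3*, was at 7.86 and 7.79, above background on every array, and did not pass. The 8 microglial markers averaged 10.22 to 10.53 and 9.59 to 10.38. Of 7 tested, *P2ry12* fell by 1.78 and 6 did not pass, beside 5.99% falls among all genes tested. Among those 6, *Cx3cr1* (0.68) and *Tmem119* (0.61) lay above every control after ischemia, and *Gpr34* (-1.71) lay below. The 8 lymphocyte markers averaged 6.40 to 6.54 and 6.44 to 6.64. Of 4 tested, *Cd2* rose, by 1.58, and *Cd5* fell to within background, beside 16.8% rises and 5.99% falls among all genes tested. *Cd5* entered the test only through the controls and was at least 1.24-fold lower. Control 63 stood apart in endothelial markers, which averaged 10.16 in it and 7.89 to 8.42 in the other 5 arrays, and its highest value was 13.85 where the others reached 14.88 to 14.96. It was the lowest array for *Cd163* and *Hmox1*, and the lowest control for *Slc40a1* and *Blvrb*. Without control 63, *Slc40a1* was at -2.65 and *Blvrb* at -1.58, and both passed the test.

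**Figure D4:**
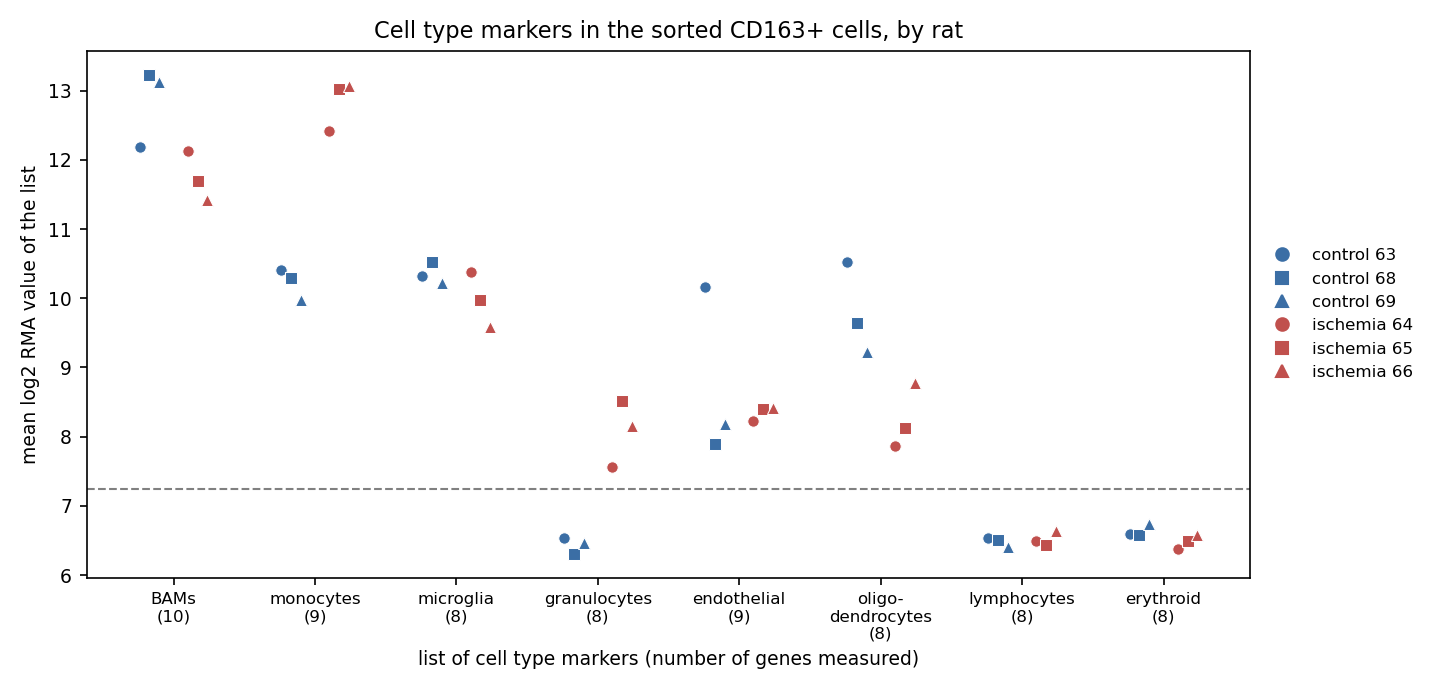
Mean log2 RMA value (y axis) of 8 lists of cell type markers in each rat, with the number of genes measured in parentheses, controls in blue and ischemic rats in red; BAMs are border-associated macrophages and a dashed line marks the background level, 7.25. Monocyte and granulocyte markers were higher and those of oligodendrocytes lower in all 3 ischemic rats than in every control. BAM markers were also lower in all 3, by a narrow margin (at most 12.13 against at least 12.19 in controls). Control 63 was at 10.16 for endothelial markers, and the mean of the erythroid markers lay below background.

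As a description of the pattern over the 6 arrays, the tested genes most like *Cd163* were *Pi4kb* (Pearson r = 0.99), *Myd88* (0.99), *Cldn12* (0.98), *Brpf1* (0.98) and *Zbtb22* (0.98). *Myd88*, an adaptor of Toll-like receptors, was at 11.06, 11.47 and 11.35 in controls and at 11.50, 11.47 and 11.32 after ischemia. Those most like *Hmox1* were *Myo15b* (0.99), *Prpf38b* (0.99), *Prkag2* (0.98), *Ccdc117* (0.98) and *Unc45a* (0.98). *Ccdc117* was at 7.33, 7.71 and 8.92 in controls and at 7.91, 7.83 and 8.27 after ischemia, with control 69 highest as for *Hmox1*. In all, 33 genes exceeded an r of 0.95 for *Cd163* and 17 for *Hmox1*. The 6 points share their arrays, their normalization and their groups.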

How the data were processed

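CD11b+CD163+ cells were sorted from 3 control and 3 ischemic rats, and RNA of each rat, amplified by 3′ in vitro transcription, was read on 1 Affymetrix rat array. The authors deposited log2 values after RMA: background correction, quantile normalization and summary of the probes of a set. Their processing notes name R 3.3.1 and limma 3.18. All 31099 probe sets were used as deposited, and neither of the study's filters had been applied. Of these, 57 were controls, 20826 named 1 gene, 436 several and 9780 none. In RefSeq 20758 of the single symbols were found. The members and lists were chosen with earlier results of these data known.

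A gene entered the test if its value was over 7.16 on 3 or more arrays. This limit is the 40th percentile of the values of probe sets other than controls. Groups were compared by lmFit and eBayes of limma 3.58.1 (R 4.3.3), two-sided, with Benjamini-Hochberg adjustment and no covariates, as no label gives a batch. The background level, 7.25, is the 90th percentile of the mean level of 28 genes of other tissues. Named were all members with every probe set; from each pathway list up to 4 genes past the test with the largest change and the 2 of highest mean that did not pass; from marker lists the highest or most changed; *Ncoa4*, *Hfe*, *Bach1*, *Spic* and *Adam17*, chosen after their values were seen; and the 5 genes most correlated with *Cd163* and with *Hmox1*. Alternatives varied how dim genes were filtered, which probe set stood for a gene, how arrays were scaled, moderation, array weights, the threshold and which rats were included. The code was tested on simulated data. The number of arrays limits precision, and array values give no read depth. The p-values weigh the difference between groups against the spread between rats, which eBayes moderates over all genes. The ferritin genes and *Slc11a1* are not reported.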

Additional observations from a re-analysis of the deposited data

How the results depend on the processing

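*Slc40a1* fell in every alternative except the fit without moderation (log2 fold change -2.36, adjusted p = 0.0246), at -2.85 to -2.11. *Blvrb* kept its direction throughout but not its call without moderation (-1.37, adjusted p = 0.0457) or without control 68, control 69, ischemic rat 65 or ischemic rat 66 (-1.30 to -1.24), with a range of -1.59 to -1.24 over all 6 rats left out in turn. The genes that fell thus numbered 1 to 2 of 7 with 1 rat left out and 0 without moderation. *Hmox1* turned to 0.36 without control 69 and to 0.04 without ischemic rat 65, in a range of -0.49 to 0.36 with 1 rat left out, and was -0.55 with ribosomal centring and -0.64 with array weights. *Cd163* ranged from 0.11 (ribosomal centring) to 0.82 (without control 68). *Blvra* turned to -0.16 with ribosomal centring. *Tfrc* turned to 0.0053 with the probe set of highest SD, to 0.011 with median centring, to 0.29 with array weights, and to 0.04, 0.22 and 0.0002 without control 69, ischemic rat 64 and ischemic rat 66, in a range of -0.24 to 0.22 with 1 rat left out, and was -0.43 with ribosomal centring. None of these *Cd163*, *Hmox1*, *Blvra* and *Tfrc* values passed the test. Genes past the test over the whole array numbered 0 without moderation (4478 at an unadjusted p under 0.05, limma), 3683 with array weights, 4099 at an adjusted p under 0.05, and 847 (without ischemic rat 65) to 2380 (without ischemic rat 64) with 1 rat left out, beside 2259. Pathway genes that rose numbered 11 without the low-signal filter, 7 with ribosomal centring, 0 without moderation and 6 to 18 with 1 rat left out, beside 18. Those that fell numbered 2, 11 and 0 in the same settings, 3 with robust moderation, 9 with array weights, 8 at an adjusted p under 0.05, and 0 to 6 with 1 rat left out, beside 5. Ribosomal centring shifts every gene by the same amount per array. The causes of the other differences were not tested. No paired analysis was possible because no replicate number is shared between the groups. With 3 rats a group, changes such as that of *Hmox1* have intervals about 2 log2 units wide.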
